A study of Homo sapiens with 2 samples.

Results

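Eosinophil-lineage cells were examined in the BG-HFO, an organoid of human pluripotent stem cells in which heart tissue, endothelium and blood cells form together. A barcode was taken as a member when it held 500 to 9000 genes, under 15% mitochondrial unique molecular identifiers (UMIs, counted transcript molecules) and either at least 3 EPX or at least 20 CLC UMIs. It also had to hold at least 10 PRG2 UMIs, at most 2 UMIs of C1QA, C1QB and C1QC together, none of CDH5 and at most 3 of MYH6. The rule found 162 members among 34749 barcodes. Organoid 32.7 held 96 of 15632 barcodes, or 0.614% (exact 95% interval 0.498 to 0.749), and organoid 33.10 held 66 of 19117, or 0.345% (0.267 to 0.439). The intervals cover counting error only.

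Both organoids came from the established human embryonic stem cell line hES3 NKX2.5-eGFP, which reports NKX2-5 with a green fluorescent protein, and were taken on day 14. Each was dissociated and sequenced whole as 1 library, with no sort, so the 2 libraries are replicates of 1 condition and comparisons were made between cell classes within them. Both had received BMP4, bFGF, VEGF and a blood-forming cytokine mix with SCF, EPO, IL-3, IL-6, IL-11, IGF-1, FLT3 ligand and SHH. IL-5 and GM-CSF are not named among the factors. As a model the data are thus limited to 1 reporter line and 1 time point.

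Eosinophils are granulocytes known for their part in allergy and in defence against parasitic worms. They arise from myeloid progenitors under transcription factors that include GATA1, CEBPE and SPI1 (PU.1), and IL-5 drives their late growth through IL5RA and the shared beta chain CSF2RB. Their granules are packed with cationic proteins: the major basic proteins of PRG2 and PRG3, the peroxidase of EPX and the ribonucleases of RNASE2 and RNASE3. CLC encodes galectin-10, which forms Charcot-Leyden crystals. Basophils, a sister lineage, also make CLC and PRG2, and are known for histamine, which HDC makes, and for the mast cell protease CPA3.

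Organoid 32.7 gave 191152562 UMIs in 16866 barcodes and organoid 33.10 gave 233818881 in 19948. The members held 1644447 and 1147584 of these UMIs. Their median depth was 12486 UMIs per barcode in organoid 32.7 (range 1431 to 56173) and 13311 in organoid 33.10 (4305 to 52866), with medians of 3883 and 3880 genes. The libraries shared 100 barcode sequences, none of them among the members. Within a library, some members had counts that a chi-square test could not tell apart at p = 0.001. These were 24 of the 96 members of organoid 32.7 (25%), in 10 groups of up to 4, and 28 of the 66 of organoid 33.10 (42.4%), in 8 groups of up to 7. Neutrophil-lineage barcodes showed such matches in 37.7% and 23.2% of cases and macrophages in 16.8% and 22.0%. The largest group held 39 of the 220 neutrophil-lineage barcodes of organoid 32.7. Groups were built from matching pairs, so barcodes of a group need not all match each other. A group of 4 members in organoid 32.7 ran from 8 to 152 MPO UMIs and from 16 to 222 CLC UMIs. Whether matching barcodes are 1 cell under several barcodes was not tested, and counting each group as 1 leaves 82 and 46 members.

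EPX, CLC and PRG2 chose the members, and their values are given as a description. PRG2 (chr11:57386780-57390650, GRCh38, minus strand) had the highest median of them, with 351 UMIs per member in organoid 32.7 (10 to 2565) and 382 in organoid 33.10 (25 to 2213). Some members of both organoids held more CLC than PRG2. CLC (chr19:39731255-39738029, minus strand) had medians of 78.5 (0 to 1274) and 233 (0 to 1249). EPX (chr17:58192726-58205174, plus strand) had medians of 11 (0 to 151) and 5 (0 to 152). The organoids thus overlapped throughout in all 3 genes. In organoid 32.7, 61 members met both the EPX and the CLC condition, 21 only that of EPX and 14 only that of CLC. In organoid 33.10 these were 41, 1 and 24, so members chosen on EPX without CLC came from organoid 32.7 but for 1.

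Few barcodes lay close to the EPX and CLC thresholds, but in organoid 32.7 more lay a little further below. With at least 2 EPX or 10 CLC UMIs as the condition, organoid 32.7 had 112 members and organoid 33.10 had 68. In organoid 32.7, 3 members had exactly 3 EPX UMIs and under 20 CLC UMIs, while 7 barcodes stayed outside with 2 EPX UMIs. In organoid 33.10 these were 0 and 2. With under 3 EPX UMIs, 1 member of organoid 32.7 had 20 to 24 CLC UMIs and 4 barcodes stayed outside with 15 to 19, and organoid 33.10 had none in either range. Of the barcodes that met every other condition, the limit on CDH5 kept out 9 and 22, that on MYH6 10 and 9, and that on C1Q 1 and 2. The members carried most of the RNA of these genes in the organoid. They held 75.1% and 57.4% of all EPX UMIs of organoids 32.7 and 33.10, 72.9% and 67.6% of those of CLC, and 63.8% and 50.6% of those of PRG2.

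**Figure D1:**
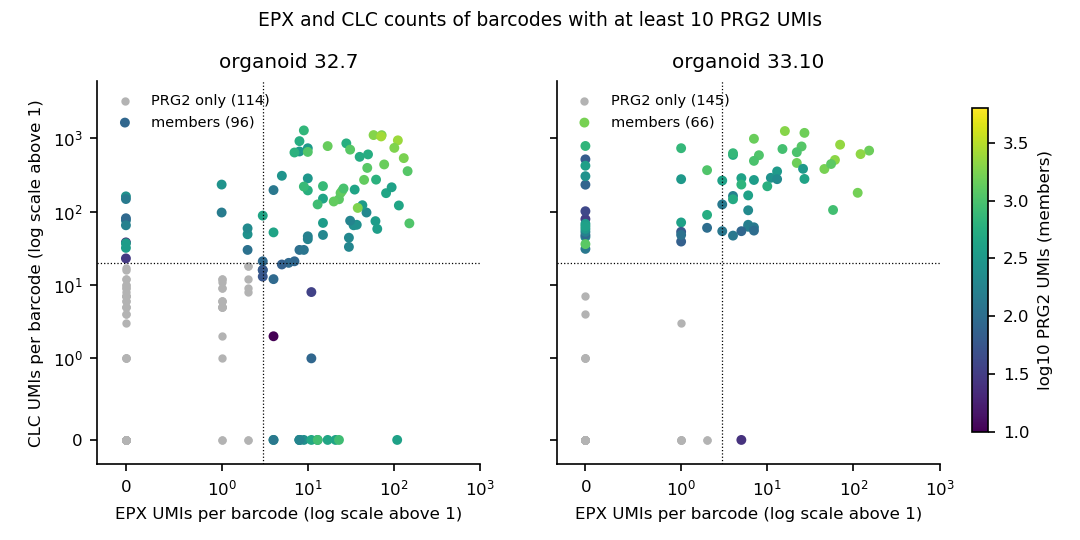
EPX (horizontal) and CLC (vertical) UMIs of each barcode with at least 10 PRG2 UMIs, on axes linear below 1 and logarithmic above, for organoid 32.7 (left) and 33.10 (right). Members are coloured by their log10 PRG2 UMIs, grey points are barcodes with PRG2 alone (114 and 145), and dotted lines mark the thresholds of 3 EPX and 20 CLC UMIs. EPX-positive members under the CLC line number 21 in organoid 32.7 and 1 in organoid 33.10.

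Further genes of the lineage, which the rule did not name, were present in these cells. PRG3, whose product is the homologue of major basic protein, had 2391 CPM (UMIs of the gene scaled to a common total for each sum of barcodes) in the members of organoid 32.7 and 1956 in those of organoid 33.10. Among barcodes of the cardiomyocyte reference, which have at least 20 MYH6 UMIs and should hold PRG3 only as free RNA, it had 3.15 and 3.18 CPM. A PRG3 UMI was found in 80.2% and 66.7% of members and in 1.48% and 1.14% of the reference barcodes, which were somewhat deeper (medians of 16513 and 17815 UMIs). The members held 74.0% and 61.8% of all PRG3 UMIs of the organoids. IL5RA, the IL-5 receptor chain that is the lineage's best-known surface protein, had 104 and 180 CPM against 0.48 and 0.71 in the reference. An IL5RA UMI was found in 59.4% (exact 95% interval 48.9 to 69.3) and 75.8% (63.6 to 85.5) of members against 0.74% and 0.88% of reference barcodes, and in 33.3% and 57.8% after members were thinned to 5000 UMIs each.

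CCR3, the eotaxin receptor of the mature eosinophil, was near 0, with 1.22 and 0.87 CPM in the members, 1.26 and 1.70 in neutrophil-lineage barcodes and 5.19 and 6.02 in macrophages. SIGLEC8, an inhibitory receptor of late eosinophils, basophils and mast cells, had 1.22 and 6.97 CPM and a UMI in 2.08% and 10.6% of members, 10 UMIs in all. It had no UMI in neutrophil-lineage barcodes, so that the members were at least 7.11-fold higher, and none in the cardiomyocyte reference. Macrophages had 0.14 and 0 CPM from 1 UMI, a ratio of 38.6 (95% counting interval 5.49 to 1676). The name eosinophil-lineage is that of the rule genes, and PRG3, IL5RA and ALOX15 describe the members beside them. In organoid 33.10 ALOX15 was found in 7 of 66 members, PRG3 in 44 and HDC in 50. RNASE2 and RNASE3 did not pass against neutrophil-lineage barcodes, and HDC and CPA3, described below, are better known from basophils and mast cells. Across members IL5RA had a rho of 0.39 and 0.41 with HDC and of -0.034 and -0.0035 with ALOX15, and 42 of the 50 HDC members of organoid 33.10 carried it. Genes that vary together with EPX, CLC and PRG2 from cell to cell are not independent of the choice of members. PRG3, IL5RA and ALOX15 are therefore no separate support for the name.

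The upstream sequences of PRG3 and CLC are shown because these cells carry most of the RNA of both genes and also hold GATA1 and GATA2. Of EPX, CLC, PRG2 and PRG3, the RefSeq promoters used here (GRCh38.p14) matched CLC and PRG3. Each line gives the 250 bases before the start of the gene, 5′ to 3′ on the gene's own strand, with capitals on matches to GATAA or its reverse complement TTATC, the core of the GATA factor motif. PRG3 lies at chr11:57376769-57381150 on the minus strand.
PRG3 (chr11:57381151-57381400, minus strand): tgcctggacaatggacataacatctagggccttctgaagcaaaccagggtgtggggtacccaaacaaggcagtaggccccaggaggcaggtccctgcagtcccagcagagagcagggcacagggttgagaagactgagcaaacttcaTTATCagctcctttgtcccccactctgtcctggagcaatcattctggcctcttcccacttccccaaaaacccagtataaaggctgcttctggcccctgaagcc
CLC (chr19:39738030-39738279, minus strand): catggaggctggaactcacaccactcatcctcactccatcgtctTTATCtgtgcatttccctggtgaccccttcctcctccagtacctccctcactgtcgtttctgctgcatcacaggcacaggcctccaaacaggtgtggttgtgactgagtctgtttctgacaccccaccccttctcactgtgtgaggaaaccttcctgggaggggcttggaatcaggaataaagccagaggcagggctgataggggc
Both windows hold 1 match, which begins 103 bases before the start of PRG3 and 206 bases before that of CLC, and in both it is the reverse complement. Of 35116 promoter windows of this length in the table, 20.4% hold GATAA or TTATC. Neither window holds TTGCNNAA or its reverse complement TTNNGCAA, the C/EBP core, which 9.05% of the windows hold.

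The members were compared with neutrophil-lineage barcodes (at least 10 MPO UMIs, 220 and 56 barcodes) and with macrophages (at least 10 C1Q UMIs, 386 and 191 barcodes), both under the members' minimum of EPX, CLC and PRG2. UMIs were summed per class and organoid. The sums were fitted with the quasi-likelihood test of edgeR, and p-values were adjusted by Benjamini-Hochberg across the 12961 genes tested. Against the neutrophil-lineage barcodes 288 genes (2.22%) were higher in the members and 425 (3.28%) lower. Against the macrophages 1363 genes (10.5%) were higher and 1808 (13.9%) lower. Over all genes the median log2 fold change was -0.016 and 0.0039. EPX, CLC, PRG2, MPO, the C1Q genes, CDH5, MYH6, CD14 and PTPRC shaped the classes. The 10 of them with enough counts were fitted with the rest and are inside these counts, but their tests are not read, and they are left out of the list counts below. List genes low in both other classes, among them PRG3, CPA3, IL5RA, IL1RL1, SIGLEC6, ALOX15 and AVP, passed the count filter through the members. Others near 0 in the members, among them CD163, FPR1 and CCR2, passed it through another class. Tallies over their lists are therefore not a result about the list. Each p-value describes the spread between 2 organoids, and fold changes below are log2 ± SE.

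Among the genes of the granule, PRG3 and CPA3 were higher in the member sums than in those of both other classes, and LYZ (lysozyme) was lower. CPA3 was found in 20 of 96 and 13 of 66 members, and in organoid 33.10 a single barcode held 62 of its 142 UMIs. Of 11 granule genes tested, 2 were higher and 1 lower than in neutrophil-lineage barcodes, with a list median of -0.11. As PRG3 and CPA3 passed the count filter through the members, this count is not a result about the list. PRG3 was 11.66 ± 0.26 higher (adjusted p = 6.6e-08), against only 0.63 and 0.85 CPM in the neutrophil-lineage sums. That class was capped on PRG2 and EPX, with which PRG3 varied across members (rho 0.57 and 0.73 with PRG2, 0.69 and 0.49 with EPX). The difference and its p-value are thus not independent of the choice of members. CPA3, a carboxypeptidase, had 67.5 and 124 CPM in the members and 0.63 and 0.85 in the neutrophil-lineage barcodes (7.14 ± 0.51, adjusted p = 0.00022). LYZ had 428 and 206 CPM against 5066 and 4279, and fell by 3.77 ± 0.31 (adjusted p = 0.00022). Lysozyme is a major product of neutrophil and macrophage precursors, and the member sums lay below both neutrophil-lineage sums.

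RNASE2 and RNASE3, the eosinophil ribonucleases, did not pass against neutrophil-lineage barcodes with both organoids in the fit. RNASE2 had 709 and 205 CPM in the members and 387 and 336 in the neutrophil-lineage sums (0.45 ± 0.43, adjusted p = 0.65). RNASE3 had 90.0 and 6.97 CPM against 77.1 and 69.5 (-0.42 ± 0.62, adjusted p = 0.79). The member sums of the organoids lay on either side of the neutrophil-lineage sums in both genes, and 1 organoid decided each call. RNASE2 passed as higher without organoid 33.10 (1.08, adjusted p = 0.014) and RNASE3 as lower without organoid 32.7 (-3.29, adjusted p = 0.0018). These paralogues resemble each other, and whether reads were exchanged between them was not tested. SRGN, the proteoglycan core that packs granule proteins, was shared as well, with 5677 and 3409 CPM against 4460 and 4263 (0.16 ± 0.20, adjusted p = 0.74).

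Against macrophages 4 of the 11 granule genes were higher (PRG3, SRGN, CPA3 and CST7) and 4 lower (LYZ, ACP5, GRN and HPSE), with a list median of 1.69. PRG3 was 11.33 ± 0.24 higher (adjusted p = 3.8e-08), again with a class capped on genes that it varies with. SRGN was 3.21 ± 0.22 higher, with 484 and 534 CPM in the macrophages. CST7, a cysteine protease inhibitor of granule-bearing cells, was 6.41 ± 0.56 higher, with 377 and 125 CPM against 2.24 and 4.38. CPA3 had no UMI in the macrophages and was at least 326-fold higher, taking 3 counts over the group as the floor. LYZ fell by 1.12 ± 0.28 (adjusted p = 0.019), and with members chosen on CLC alone that call was lost. ACP5 lost its call without organoid 32.7, and HPSE without organoid 33.10 and under 5 further alternatives.

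Genes of the neutrophil primary granule behaved differently in the 2 organoids. MPO (chr17:58269855-58280935, minus strand), the neutrophil peroxidase, had 1228 CPM in the members of organoid 32.7 and 4.36 in those of organoid 33.10, against 4678 and 4045 in neutrophil-lineage barcodes. PRTN3, the serine protease proteinase 3, had 1449 and 6.97 CPM against 2692 and 2490. AZU1 (azurocidin) had 266 and 19.2 CPM against 456 and 361. In organoid 32.7, 27 of 96 members had at least 10 MPO UMIs and 49 had none, so the sum came from a part of the members, and MPO also defined the neutrophil-lineage class. Over 9 tested genes of this list none was higher and LYZ and MS4A3 were lower than in neutrophil-lineage barcodes, with a median of -1.38. MS4A3, a membrane protein of granulocyte precursors, had 115 and 91.5 CPM against 205 and 186, and without organoid 33.10 its difference (-0.67, adjusted p = 0.092) no longer passed, nor did it with members chosen on CLC alone. With the organoid as a replicate block 2 further serine protease genes passed as lower, ELANE (-4.08) and CTSG, whose level in neutrophil-lineage barcodes was 14.3 times that of the members (2 UMIs, 3.79 to 121). With members of under 10 MPO UMIs, chosen after their MPO counts were seen, ELANE, CTSG, PRTN3, AZU1 and SERPINB10 passed as lower. Across the alternatives PRTN3 reached -8.42, AZU1 -4.31 and SERPINB10 -4.0, so the count of lower genes in this list depends on the choice of members.

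Against macrophages 5 of the 9 primary granule genes were higher, namely AZU1, PRTN3, SERPINB10, MS4A3 and CALR. MS4A3 had 2 UMIs in all macrophages, a ratio of 568 (95% counting interval 156 to 4710). Without organoid 32.7, PRTN3 turned to -0.045 (adjusted p = 0.96) and AZU1 fell to 1.46 (adjusted p = 0.060).

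Of 7 calgranulin and later granule genes tested, 4 were lower than in neutrophil-lineage barcodes and none higher. The other 4 of the 11 genes of the list (LTF, LCN2, CAMP and MMP8) had too few counts, and S100A12 passed the count filter through the neutrophil-lineage barcodes, so this count is not a result about the list. S100A9 had 621 and 88 CPM in the members against 9891 and 8606 (-4.59 ± 0.69, adjusted p = 0.0048). S100A8, its partner in calprotectin, had 767 and 71.5 CPM against 8048 and 6379 (-3.99 ± 0.80, adjusted p = 0.019), and with members chosen on EPX alone it no longer passed. S100A12 had no UMI in any member and was at least 261-fold lower. PADI4, the enzyme that citrullinates histones in neutrophils, had 38.3 and 27 CPM against 178 and 170 (-2.29 ± 0.20). LTF and MMP8 had no UMI in the members. Against macrophages CEACAM8 and PADI4 were higher and MMP9, S100A9 and S100A12 lower, and CEACAM8 (5.18, adjusted p = 0.051) and S100A12 lost their calls without organoid 32.7.

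**Figure D2:**
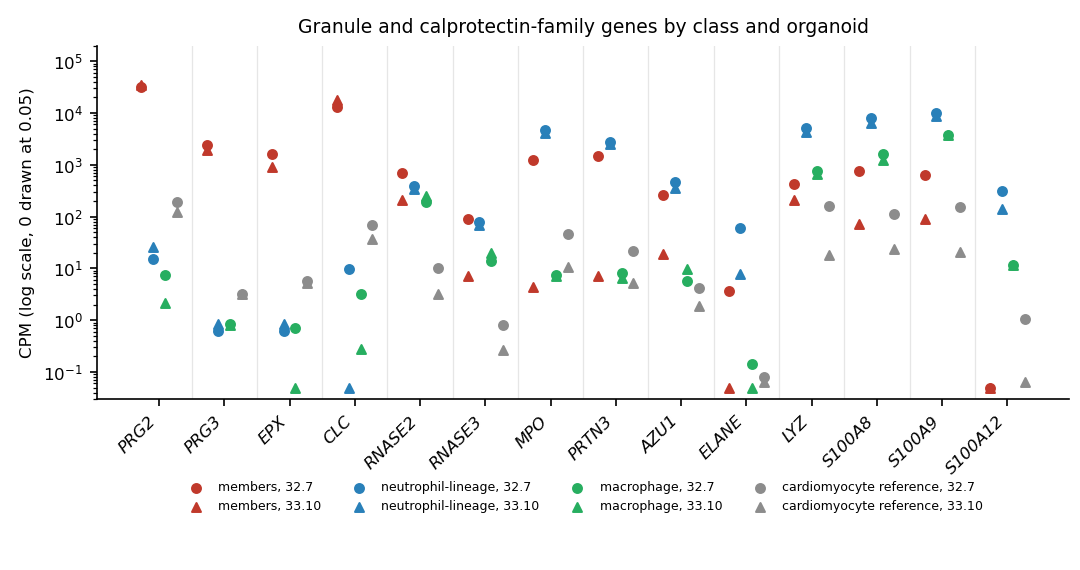
Level of granule and calprotectin-family genes in CPM on a log scale, as 1 point per class and organoid (circle 32.7, triangle 33.10), with 0 drawn at 0.05. PRG2, EPX and CLC chose the members and were capped in the neutrophil-lineage and macrophage classes. PRG3 stands high in the members, LYZ, S100A8 and S100A9 stand below the neutrophil-lineage barcodes, and MPO and PRTN3 differ between the members of the 2 organoids (1228 and 4.36 CPM for MPO).

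Among the transcription factors, GATA2, GATA1 and CEBPE were all higher in the member sums. Of 30 tested, 7 were higher than in neutrophil-lineage barcodes and 4 lower, with a median of 0.32. GATA2, a factor of progenitors, basophils and mast cells, had 88.2 and 152 CPM against 5.45 and 2.54 (4.73 ± 0.46, adjusted p = 0.00049). GATA1, needed for eosinophils, erythroid cells and megakaryocytes, had 53.5 and 62.7 CPM against 7.33 and 7.63 (3.05 ± 0.33, adjusted p = 0.00088). CEBPE, which drives the late granules of eosinophils and neutrophils, had 228 and 118 CPM against 55.1 and 51.7 (1.80 ± 0.30, adjusted p = 0.0076). In all 3 genes both member sums lay above both neutrophil-lineage sums. Across the members of organoids 32.7 and 33.10, the rho of CEBPE was -0.32 and -0.37 with GATA2 and -0.0028 and 0.019 with GATA1, a description over 96 and 66 barcodes that share a library.

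IKZF2, the zinc finger factor Helios, had 350 and 326 CPM against 29.5 and 17.8 (3.82 ± 0.25, adjusted p = 6.7e-05). LMO4, a LIM-domain cofactor, had 189 and 380 CPM against 66.6 and 54.3 (2.29 ± 0.31). MITF, a factor of mast cells, had 47.4 and 145 CPM against 23.7 and 17.0 (2.21 ± 0.45, adjusted p = 0.022), but 226 and 252 in the cardiomyocyte reference. HES1, a Notch target, made the seventh, and did not pass when either organoid was left out (1.79 without 32.7, 1.34 without 33.10).

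IRF8, which steers progenitors to monocytes, had 1 UMI in all members, and its level in neutrophil-lineage barcodes was 36.6 times theirs (95% counting interval 6.38 to 1463). KLF4, a monocyte factor, had 1.22 and 1.74 CPM against 20.7 and 22.1, and LMO2 71.2 and 63.6 against 136 and 135, both passing as lower. SPI1 (185 and 140 CPM against 244 and 243, adjusted p = 0.14) and MYB (261 and 170 against 132 and 148, adjusted p = 0.16) did not pass.

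Against macrophages 14 of the 30 factors were higher and 8 lower, with a median of 0.64. CEBPE, at 1.82 and 0.55 CPM in the macrophages (adjusted p = 6.8e-06), GATA2 (5.59 ± 0.45), MYB (4.80 ± 0.33), IKZF2 (3.41 ± 0.23) and GATA1 (3.04 ± 0.30) were among those higher. MYB, the factor of definitive blood progenitors, had only 5.33 and 12.0 CPM in the macrophages. GFI1, a repressor in granulocyte precursors, had 29.2 and 4.36 CPM in the members and 3 UMIs in all macrophages, a ratio of 68.2 (22.1 to 341), and without organoid 32.7 (3.85, adjusted p = 0.069) it did not pass. Calls were also lost for GFI1B (1.94) and FLI1 (0.565) without organoid 32.7, and for IKZF1 (0.68) and MITF (0.47) without organoid 33.10. SPI1 fell by 1.10 ± 0.15 (adjusted p = 0.00086).

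Of 13 cytokine receptor genes tested, 3 (IL5RA, CSF2RB and IL1RL1) were higher than in neutrophil-lineage barcodes and 6 lower, with a median of -0.48. IL5RA and IL1RL1 passed the count filter through the members, so this count is not a result about the list. IL5RA had 104 and 180 CPM against 0.84 and 0 (7.73 ± 0.49, adjusted p = 6.3e-05). CSF2RB, the beta chain that IL-5, IL-3 and GM-CSF share, had 105 and 153 CPM against 24.7 and 12.7 (2.70 ± 0.28, adjusted p = 0.00075). IL1RL1, the IL-33 receptor ST2, had 38.3 and 74.9 CPM against 4.19 and 0 (4.23 ± 0.60, adjusted p = 0.0034). All 3 were also higher than in macrophages, by 7.71 ± 0.43, 2.28 ± 0.26 and 6.41 ± 0.67.

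The partner chains did not follow. CSF2RA, the GM-CSF receptor chain, had 52.3 and 38.3 CPM against 59.7 and 50.9 in neutrophil-lineage barcodes (adjusted p = 0.71), and IL3RA had 29.8 and 26.1 against 20.7 and 15.3 (adjusted p = 0.17). IL3RA stood at 46.5 and 50.1 CPM in the cardiomyocyte reference. CSF1R, the receptor of macrophage growth, had 1.82 and 3.49 CPM in the members, 26.0 and 36.5 in neutrophil-lineage barcodes (-3.44 ± 0.40) and 286 and 236 in macrophages (-6.63 ± 0.32). IL6R, the IL-6 receptor, had 5.47 and 6.10 CPM against 46.1 and 50.9 in neutrophil-lineage barcodes (-2.95 ± 0.26). CSF3R, the G-CSF receptor, was lower than in neutrophil-lineage barcodes (103 and 61.0 against 219 and 198 CPM), but not without organoid 33.10 (-0.91, adjusted p = 0.16). KIT and FLT3, whose ligands were in the medium, had no UMI in any member.

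Among surface and chemoattractant receptors 7 of 32 were higher and 7 lower than in neutrophil-lineage barcodes, with a median of -0.03. Of the lower genes, CCR1 (-1.24), ITGAL (-1.46) and ITGB2 (-0.65) did not pass without organoid 32.7, nor did ITGB2 (-0.77) without organoid 33.10. CD24, a small glycoprotein of granulocytes, had 554 and 426 CPM against 77.3 and 25.4 (3.21 ± 0.43, adjusted p = 0.0024). ITGA4, the alpha chain of the integrin VLA-4 by which eosinophils bind endothelium, had 468 and 206 CPM against 72.5 and 89.9 (2.19 ± 0.33, adjusted p = 0.0048). SIGLEC6, a lectin of mast cells and basophils, had 13.4 and 21.8 CPM in the members and 2 UMIs in all neutrophil-lineage barcodes, a ratio of 50.1 (13.1 to 426). All 3 were higher than in macrophages as well.

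HRH4, the histamine receptor that eosinophils migrate by, had 28.6 and 11.3 CPM against 1.89 and 0. Without organoid 32.7 this no longer passed (3.10, adjusted p = 0.16). PTGDR2, the prostaglandin D2 receptor CRTH2 of eosinophils and basophils, had 6.69 and 9.59 CPM against 0.63 and 1.70, and did not pass when either organoid was left out (3.48 without 32.7, 2.96 without 33.10). Receptors known from phagocytes were divided. FCGR2B, the inhibitory Fc receptor, had 17.6 and 18.3 CPM in the members against 2.30 and 0.85 in neutrophil-lineage barcodes (3.24 ± 0.34, adjusted p = 0.00076), but 319 and 289 in macrophages (-4.03 ± 0.20). FCGR2A (0.65, adjusted p = 0.090) and C5AR1 (-0.70, adjusted p = 0.21) did not pass against neutrophil-lineage barcodes. FPR1, the formyl peptide receptor, had 2 UMIs in all members and was 19.9 times as high in neutrophil-lineage barcodes (5.35 to 167). FCGR3A, the Fc receptor CD16, had 3 UMIs and was 15.8 times as high there (5.25 to 77.9). Against macrophages 9 of the 32 were higher and 17 lower, with a median of -0.99.

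**Figure D3:**
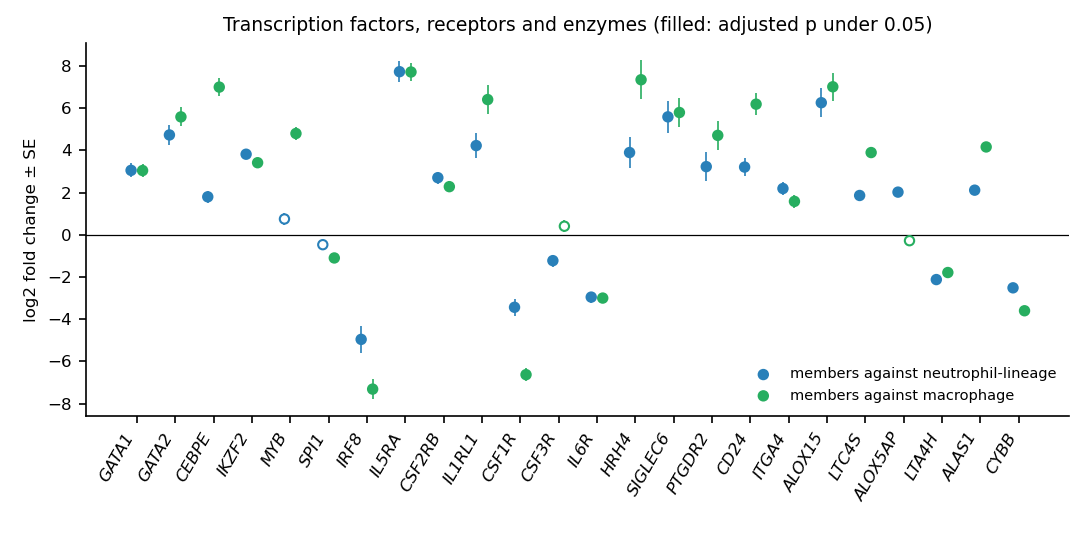
Log2 fold change of the members (vertical, points, with bars for 1 SE) for transcription factors, receptors and enzymes, against neutrophil-lineage barcodes (blue) and macrophages (green), filled where the adjusted p was under 0.05. GATA1, GATA2, CEBPE, IKZF2, IL5RA and CSF2RB lie above 0 in both comparisons, and IRF8, CSF1R and CYBB below. For genes with 3 UMIs or fewer in a class, such as IRF8 and SIGLEC6, the position depends on the fit's prior count.

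Of 10 lipid mediator enzymes and partners tested, 5 (ALOX15, LTC4S, ALOX5AP, HPGDS and PTGS1) were higher than in neutrophil-lineage barcodes and 1 lower, with a median of 1.05. ALOX15, the 15-lipoxygenase that eosinophils are rich in, had 107 and 37.5 CPM against 1.26 and 0 (6.26 ± 0.70, adjusted p = 0.00098). LTC4S, which makes leukotriene C4, had 151 and 99.3 CPM against 39.0 and 33.9 (1.86 ± 0.22, adjusted p = 0.0014). ALOX5AP, the 5-lipoxygenase-activating protein, had 178 and 229 CPM against 58.0 and 46.6 (2.02 ± 0.22). HPGDS, the prostaglandin D2 synthase of mast cells and macrophages, had 18.2 and 48.8 CPM against 1.26 and 0.85 (4.82 ± 0.59). PTGS1, the cyclooxygenase that begins prostaglandin synthesis, had 32.8 and 40.1 CPM against 11.7 and 12.7 (1.68 ± 0.23, adjusted p = 0.0026). LTA4H, which makes the neutrophil attractant leukotriene B4, was lower, at 28.6 and 21.8 CPM against 119 and 120 (-2.12 ± 0.18, adjusted p = 0.00023). ALOX5 itself (56.6 and 152 CPM against 82.8 and 79.7, adjusted p = 0.59) did not pass. Against macrophages 2 were higher, ALOX15 (7.01 ± 0.66) and LTC4S (3.90 ± 0.24), and 4 lower, with a median of -0.60. With the replicate block HPGDS also passed as lower than in macrophages (-0.97).

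Oxidase and haem genes showed 1 strong difference each. CYBB, the gp91 subunit of the phagocyte NADPH oxidase, had 62.0 and 54.0 CPM against 330 and 390 in neutrophil-lineage barcodes (-2.52 ± 0.15, adjusted p = 6e-05) and 743 and 724 in macrophages (-3.60 ± 0.16). Its partner CYBA had 716 and 785 CPM against 595 and 523 and did not pass. NCF4, a cytosolic subunit, was higher than in neutrophil-lineage barcodes, at 106 and 112 CPM against 63.5 and 55.1 (0.95 ± 0.15). In all, 1 of 9 genes was higher and 2 lower, with a median of 0.20. ALAS1, the first enzyme of haem synthesis outside red cells, had 764 and 613 CPM in the members, 182 and 158 in neutrophil-lineage barcodes (2.11 ± 0.18, adjusted p = 0.00024) and 34.4 and 46.3 in macrophages (4.16 ± 0.20, adjusted p = 1.8e-06). The other 8 haem synthesis genes tested did not pass in either comparison.

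Genes of basophils and mast cells were divided within the list. Only 6 of 17 had enough counts to test, HDC and CPA3 through the members, so a tally over these 6 is no result about the list. The 5 that passed as higher than in neutrophil-lineage barcodes were HDC, CPA3, HPGDS, GATA2 and AKAP12. HDC, the histidine decarboxylase that makes histamine, had 92.4 and 291 CPM in the members and 1 UMI in all neutrophil-lineage barcodes, a ratio of 1036 (185 to 41010). Against macrophages (1.26 and 0.27 CPM) it was 7.67 ± 0.71 higher (adjusted p = 6.8e-05). AKAP12, a scaffold protein (1.55 ± 0.20), stood at 135 and 132 CPM in the cardiomyocyte reference against 92.4 and 117 in the members. Against macrophages 4 were higher and CCR3 was lower, a call that was lost when either organoid was left out (-2.56 without 32.7, -2.10 without 33.10).

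The IgE receptor chain, tryptase and chymase genes of those cells were at or near 0, unlike CPA3. FCER1A, the high-affinity IgE receptor chain, the tryptases TPSAB1, TPSB2 and TPSD1, the chymase CMA1 and MRGPRX2 had no UMI in any member. MS4A2, the beta chain of the same IgE receptor, had 1.22 and 0 CPM, and ENPP3 1.22 and 0.87. Of the 17 genes, 7 were at 0 in the members of organoid 32.7 and 9 in those of organoid 33.10. The summed level of the list was 368 and 735 CPM, led by HDC. The type 2 cytokines IL4 (0.61 and 0.87 CPM) and IL13 (4.86 and 0) were hardly seen.

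The members varied among themselves in granule genes and in GATA2, HDC and CPA3. The correlations that follow are Spearman's rho across the 96 and 66 members, on levels that share a library and the depth of each barcode, and are a description. EPX went with PRG3 (0.69 in organoid 32.7 and 0.49 in organoid 33.10), PRG2 with PRG3 (0.57 and 0.73) and PRG3 with ALOX15 (0.58 and 0.29). EPX, CLC and PRG2 chose the members, and that choice shapes their correlations. RNASE2 went with CEBPE (0.46 and 0.43).

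GATA2, HDC and CPA3 went together. The rho of GATA2 with HDC was 0.55 and 0.61, that of GATA2 with CPA3 0.50 and 0.61, and that of HDC with CPA3 0.54 and 0.56. CEBPE had a rho of -0.39 and -0.47 with HDC, and PRG3 one of -0.58 and -0.14 with CPA3. This did not hold for all granule genes, as PRG2 had 0.20 and -0.038 with HDC, and EPX had -0.17 and 0.0032 with GATA2. CLC had a positive rho with HDC (0.47 and 0.17), GATA2 (0.36 and 0.22) and CPA3 (0.22 and 0.18). Keeping 1 member of each group built from pairs that a chi-square test did not tell apart changed some values. In organoid 33.10 CLC then had a rho of 0.032 with HDC, 0.30 with GATA2 and 0.084 with CPA3. PRG2 had one of -0.20 with HDC and PRG3 one of -0.26 with CPA3. CPA3 was found in 20 members of organoid 32.7 and 13 of organoid 33.10, and ALOX15 in none of these, although 36 and 7 other members carried it. All 13 CPA3 members of organoid 33.10 also carried HDC and GATA2, and 1 carried CEBPE. In organoid 32.7, 14 of the 20 carried HDC, 14 GATA2 and 8 CEBPE. All 36 ALOX15 members of organoid 32.7 carried PRG3, as 77 of all 96 members did, and in organoid 33.10 PRG3 was found in 6 of the 7 ALOX15 members.

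HDC and GATA2 were found in a larger share of members in organoid 33.10, and CPA3 in a like share. An HDC UMI was found in 30.2% of members of organoid 32.7 and 75.8% of those of organoid 33.10, against 1.04% and 2.27% of cardiomyocyte reference barcodes. At 5000 UMIs per member these shares were 22.6% and 59.4%. GATA2 was found in 32.3% and 59.1% of members (20.2% and 40.6% at 5000 UMIs) and in 6.82% and 8.08% of reference barcodes. CPA3 was found in 20.8% and 19.7% (20.2% and 15.6% at 5000 UMIs), against 0 of 674 reference barcodes in organoid 32.7, which allows a share of up to 0.445%, and 0.51% of those in organoid 33.10. ALOX15 was found in 37.5% and 10.6% (28.6% and 9.38% at 5000 UMIs), against 1.78% and 0.63%. With 1 library per organoid, an organoid and its library cannot be told apart.

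**Figure D4:**
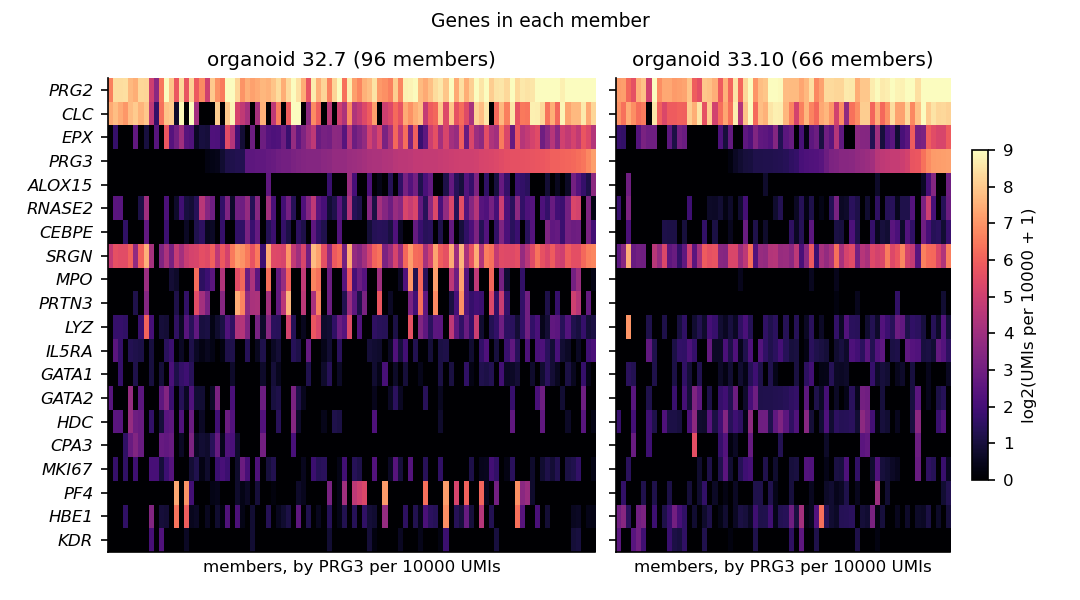
Each column is 1 member and each row 1 gene, as log2 of UMIs per 10000 plus 1, with members of each organoid ordered from left to right by PRG3. In organoid 32.7 CPA3 and HDC are found mostly towards the left and ALOX15 mostly to its right, while HDC runs through most members of organoid 33.10. In addition, MPO and PRTN3 are found in a part of the members of organoid 32.7, and PF4 and HBE1 stand out in single members.

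MPO divided the members of organoid 32.7. There, 27 members had at least 10 MPO UMIs, 20 had 1 to 9 and 49 had none, while in organoid 33.10 none had 10 or more, 3 had 1 to 9 and 63 had none. The MPO-rich members were also rich in PRTN3 (4079 CPM against 62.1 in members without MPO), LYZ (915 against 189), S100A8 (1993 against 160) and RNASE2 (1106 against 370). They held less of GATA2 (16.7 against 156 CPM), HDC (7.44 against 169), GATA1 (11.2 against 80.4) and IL5RA (27.9 against 147). Their CEBPE level was 249 against 220 CPM, and PRG3 was at 1296 against 2648. PRG2 (22691 against 40343), EPX (917 against 1725) and CLC (5572 against 19082) are genes of the rule and are given as values. The MPO-rich members were deeper, with a median of 19027 UMIs against 12072, and whether a barcode held more than 1 cell was not tested. Across the 96 members the rho of MPO was 0.84 with PRTN3 and -0.57 with IL5RA.

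Cell cycle genes summed to 1667 and 1623 CPM in the members, 1695 and 1799 in neutrophil-lineage barcodes, 1526 and 1564 in macrophages and 411 and 384 in the cardiomyocyte reference. MKI67, a proliferation marker, had 119 and 146 CPM in the members, 175 and 209 in neutrophil-lineage barcodes and 22.4 and 22.5 in the cardiomyocyte reference, and a UMI in 54.2% and 47.0% of members (32.1% and 34.4% at 5000 UMIs) against 8.75% and 9.85% of the reference. None of 19 cell cycle genes passed against neutrophil-lineage barcodes (list median 0.07), and against macrophages PCNA and TYMS, of DNA synthesis, were higher and CCNB1, a mitotic cyclin, lower (median 0.27). PCNA lost its call without organoid 32.7 (0.33, adjusted p = 0.26) and CCNB1 when either was left out, while MKI67 passed as lower with the replicate block (-0.47). Of the genes of immature progenitors, AVP, which is transcribed in human blood stem and progenitor cells, had 168 and 150 CPM against 6.28 and 1.70 in neutrophil-lineage barcodes (5.03 ± 0.33, adjusted p = 6.9e-05). The members held 36.6% and 44.7% of all AVP UMIs of the organoids. CD34 stood at 3.65 and 6.97 CPM, and SPINK2, HLF, KIT and FLT3 at 0. Of 7 progenitor genes tested AVP alone passed against neutrophil-lineage barcodes, and AVP, MYB and CD38 were higher than in macrophages, CD38 only with both organoids in the fit.

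Outside the lists, genes were named by the size of their difference. PTH2R, a parathyroid hormone family receptor, had 200 and 247 CPM in the members and 1 UMI in all neutrophil-lineage barcodes (ratio 1305, 233 to 51620). TRDC, the constant segment of the T cell receptor delta chain, had 87 and 165 CPM, a ratio of 236 (80.0 to 1150) to neutrophil-lineage barcodes, and was at least 427-fold higher than in macrophages. CDK15, a cyclin-dependent kinase, had 39.5 and 62.7 CPM, a ratio of 292 to neutrophil-lineage barcodes (51.6 to 11620). Macrophages had 0.14 and 0 CPM of CDK15. SLC45A3, a sugar transporter, had 34.1 and 60.1 CPM, a ratio of 133 to neutrophil-lineage barcodes (36.1 to 1112). RHEX, an adaptor of erythropoietin signalling, had 51.7 and 54.0 CPM against 0.63 and 1.70 (5.97 ± 0.44), and none was seen in macrophages (at least 189-fold). The lymphoid list was close to absent, with a sum of 7.91 and 13.1 CPM, and IL7R, the IL-7 receptor chain, was lower than in both classes. Its call against neutrophil-lineage barcodes was lost when either organoid was left out.

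The 10 genes with the largest fall against neutrophil-lineage barcodes included S100A12, given above. CLEC7A, the beta-glucan receptor dectin-1, was 51.8 times as high in neutrophil-lineage barcodes (17.6 to 252) and TLR2 53.5 times (9.41 to 2130). P2RY13, a purinergic receptor, had no UMI in the members and was at least 28.8-fold lower than in neutrophil-lineage barcodes and at least 70.7-fold lower than in macrophages. ASGR2, CYP1B1, FOLR3, LRRK2, MCEMP1 and AL035446.2 completed these 10. CD163, the haemoglobin scavenger receptor of macrophages, had no UMI in the members and was at least 230-fold lower than in macrophages. MS4A4A, PGA5, LILRB3, CLEC10A, HLA-DMB, IL4I1, STEAP4 and LYVE1 had none either, with bounds of 23.4-fold to 65.3-fold. Of 15 monocyte and macrophage genes tested, 14 were lower than in macrophages (median -4.03) and none higher. Against neutrophil-lineage barcodes 6 were lower (median -1.14) and none higher. C1Q divided the members from the macrophages, and genes such as CD163 passed the count filter through the macrophages. The counts are therefore not a result about the list.

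RNA of other lineages was present in part of the members. Megakaryocyte genes summed to 1706 CPM in the members of organoid 32.7, led by PF4 (844 CPM, platelet factor 4), and to 333 CPM in those of organoid 33.10, led by PPBP. The sums were 434 and 474 in neutrophil-lineage barcodes and 453 and 1442 in the cardiomyocyte reference. A PF4 UMI was found in 31.3% and 39.4% of members and in 25.4% and 39.1% of the reference. Of 7 megakaryocyte genes ITGA2B was higher than in neutrophil-lineage barcodes (1.66 ± 0.18), a call lost after members with RNA of another lineage were left out and after 10% free RNA was taken off. Against macrophages ITGA2B (2.49), GP1BA, TUBB1 and TMEM40 were higher, the last 3 not without organoid 32.7. TUBB1 and TMEM40 turned to lower without members holding RNA of another lineage.

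Erythroid genes summed to 1966 and 1724 CPM in the members, led by HBG2 and HBZ, under the 3934 and 5715 of the cardiomyocyte reference. None of 12 passed in either comparison. Cardiomyocyte genes summed to 288 and 311 CPM, with MYH7 at 0 and MYH6 limited by the rule, against 26373 and 22716 in the reference. Endothelial genes summed to 105 and 132 CPM with CDH5 at 0 by the rule, and mesenchyme genes to 300 and 203. None of the tested endothelial, cardiomyocyte, mesenchyme or endoderm genes passed against neutrophil-lineage barcodes, except that with the replicate block EMCN (1.59) was higher and DCN (-3.12) lower. Against macrophages 3 of 6 endothelial genes (EMCN, ESAM and ERG), 2 of 6 cardiomyocyte genes (TNNT2 and TTN) and 1 of 8 mesenchyme genes (WT1) were higher. Of these only ERG passed with either organoid left out, and EMCN (-1.38), ESAM (-0.51), TNNT2 (-1.12) and TTN (-0.76) turned sign without members holding RNA of another lineage. The part of such RNA in the other results was not tested beyond the alternatives named.

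**Figure D5:**
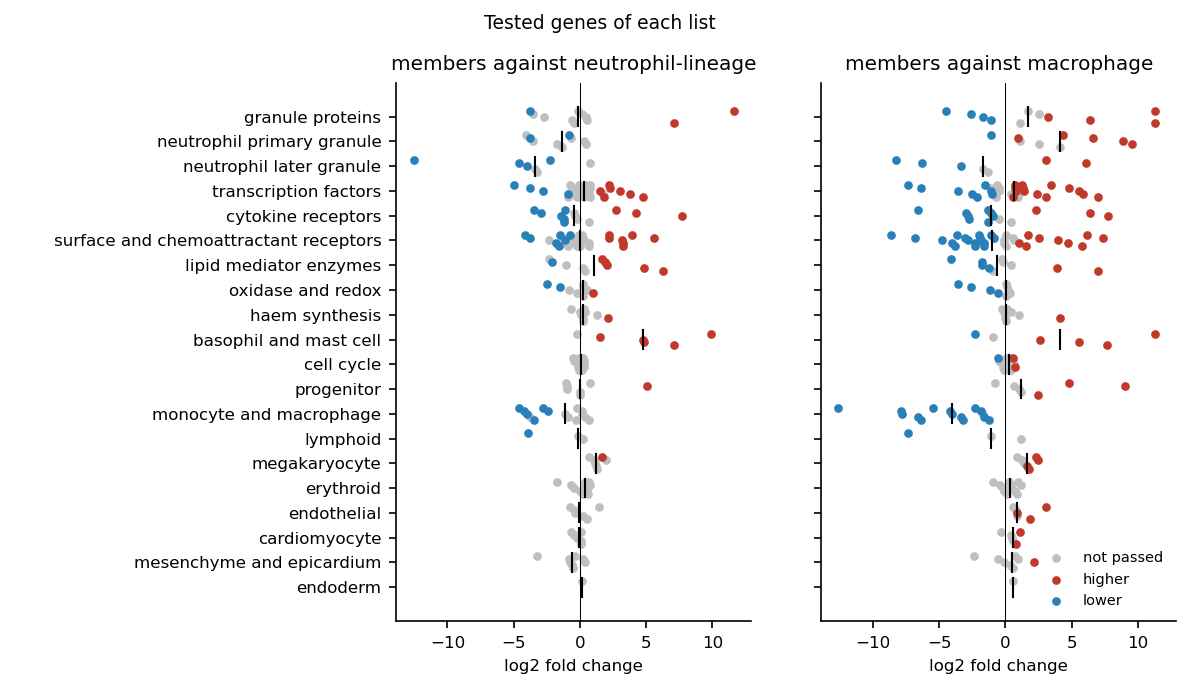
Log2 fold change (horizontal) of each tested gene of 20 lists (rows) in the members against neutrophil-lineage barcodes (left) and macrophages (right), red where higher and blue where lower at an adjusted p under 0.05, with the list median as a black line. Cell cycle genes have a median of 0.07 against neutrophil-lineage barcodes, and the row of basophil and mast cell genes shows only the 6 of 17 that had enough counts. Points of genes with no or few UMIs in a class are fitted values that depend on the prior count.

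Barcodes with at least 10 PRG2 UMIs but neither enough EPX nor enough CLC to be members numbered 114 in organoid 32.7 and 145 in organoid 33.10. They had 3463 and 3594 CPM of PRG2, against 32396 and 35159 in the members. PRG3 was at 52.8 and 45.1 CPM, IL5RA at 5.56 and 11.7 and CEBPE at 38.4 and 8.02, all below the members. GATA1 (73.1 and 114 CPM) stood above the members' 53.5 and 62.7, GATA2 was at 75.9 and 112 CPM against 88.2 and 152, and HDC at 62.0 and 195 against 92.4 and 291. Erythroid genes summed to 15320 and 22051 CPM in them, far above the members. MPO had 1010 and 105 CPM. The rule divided these barcodes from the members, so the differences are a description.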

How the data were processed

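Single-cell RNA sequencing (10x Genomics 3′ chemistry, UMIs) of 2 organoids was used. The deposited counts are whole UMIs per gene and barcode, which the authors made with Cell Ranger 7.0.0 on GRCh38 with intronic reads included, separately for each library and before their removal of free RNA, so free RNA of abundant transcripts can add to any cell. The members and gene lists were chosen with earlier results of these data known. No doublet caller was run. UMIs were summed per class and organoid (6 sums, 3 residual degrees of freedom) and tested with edgeR 4.0.16 (TMM, filterByExpr, quasi-likelihood) in R 4.3.3, with the p-values adjusted over 12961 genes and a threshold of 0.05. CPM values are 3′ tag counts, not divided by length. Ratios with 3 UMIs or fewer in a class carry an exact 95% counting interval and take 3 counts over the group as the floor.

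The text names the 20 lists (248 genes, 247 measured) and, per comparison and direction, the 10 genes with the largest fold change at 20 CPM or more whose sums did not overlap. Some genes of the lists are not reported here. The organoid pairs the classes, and the organoids' differences correlated at 0.134 between members and neutrophil-lineage barcodes and 0.0919 between members and macrophages over 8798 genes. The replicate block gave 839 and 3426 calls in place of 713 and 3171. On simulated data for the neutrophil-lineage comparison (12572 genes) the test recovered 29 of 100 genes changed by 1 and 89 of 100 changed by 2 on the log2 scale, and 9.92% of its calls were unchanged genes. For the macrophage comparison (12574 genes) it recovered 37 and 87, with 7.46%. C1Q-negative monocytic barcodes (13 and 14) and CLC-only members of organoid 32.7 (14) were under the minimum of 20 barcodes and were not tested. Alternatives were another tool (DESeq2 1.42.0), no low-count filter, leave-one-out, other rule thresholds, the study's cell filter and subtraction of free RNA. Gene positions are from GENCODE 44.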

Additional observations from a re-analysis of the deposited data

How the results depend on the processing

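The fits measure the spread between 2 organoids of 1 line, free RNA was not removed, and depth limits shares of genes with few UMIs. The 713 genes called against neutrophil-lineage barcodes (288 higher, 425 lower) became 1392 (497 and 895) with no low-count filter, where 25566 genes were tested, and 1342 (437 and 905) without members holding RNA of another lineage. Leave-one-out gave 527 to 579 (222 to 234 higher, 305 to 345 lower). The 3171 called against macrophages became 2029 without organoid 32.7 and 2473 without organoid 33.10 (851 to 1058 higher, 1178 to 1415 lower), each with 1 member sum assumed to vary like the other classes. Beside the calls given above, the replicate block added CHI3L1 (-3.39), MMP9 (-3.08), ID1 (-0.76), ID2 (-0.89) and CD68 (-0.88) against neutrophil-lineage barcodes and ELANE (4.21), S100A8 (-2.15), CEBPD (-0.59), MCM3 (0.45), CDC6 (0.61), MECOM (0.69), COL1A1 (0.69) and DCN (-2.43) against macrophages, took away CD69 (1.68) and TMEM40 (1.76) there, and changed no other call of a list gene. DESeq2 gave 652 and 2376 calls. No filter moved the median of all genes against macrophages to -0.14. Of the called genes of the lists and the largest differences, 60 of 73 and 98 of 129 passed under every alternative, among them PRG3, CPA3, GATA1, GATA2, CEBPE, IKZF2, IL5RA, CSF2RB, IL1RL1, ALOX15, LTC4S, ALAS1 and HDC. The share of members in organoid 32.7 was 0.480% by CLC alone, 0.384% without RNA of another lineage and, with members chosen after seeing their MPO counts, 0.441% with under 10 MPO UMIs. With at least 2 EPX or 10 CLC UMIs as the condition this share was 0.716%. In organoid 33.10 it was 0.220% by EPX alone, 0.230% without RNA of another lineage and 0.241% with 1 barcode per group of matches, also chosen after the data were seen. Without members holding RNA of another lineage the sign turned, by the construction of that alternative, against neutrophil-lineage barcodes for PF4 (-3.25), PPBP (-3.12), TUBB1 (-8.03), TNNT2 (-1.82), MYL7 (-1.16) and TTN (-1.82), and against macrophages for PF4 (-3.19), PPBP (-3.44), GP9 (-2.06), TUBB1 (-7.43), TMEM40 (-6.88), HBE1 (-1.66), KDR (-8.44), EMCN (-1.38), ESAM (-0.51), TNNT2 (-1.12), TTN (-0.76), COL1A1 (-3.62) and COL3A1 (-2.42). PRTN3 ranged from -0.045 to 7.64 against macrophages with 1 organoid left out. Thinning to 5000 UMIs moved 24 of 48 shares of members with a UMI. The tests against monocytic barcodes and between EPX and CLC-only members were not run.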

Other observations

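Barcodes that met every other condition but held CDH5, an endothelial cadherin gene, numbered 9 in organoid 32.7 and 22 in organoid 33.10. Those of organoid 33.10 had medians of 85.5 CLC and 163 PRG2 UMIs at a median depth of 10527 UMIs, and those of organoid 32.7 had 190 and 399 at 30864. A further 10 and 9 barcodes were kept out by MYH6 alone, and 1 and 2 by the C1Q genes. Median EPX in the barcodes that held CDH5 was 5 UMIs in organoid 32.7 and 3.5 in organoid 33.10. Against its 66 members, organoid 33.10 thus had 22 barcodes that met the EPX or CLC and the PRG2 condition and held a CDH5 UMI.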
